A study of Mus musculus with 6 samples.

Results

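Expression of 40 genes of DNA replication was examined in colon mucosa from 3 Dnmt3a-deleted and 3 control mice. The genes were taken from a list of symbols that was chosen with earlier results of these data known. Every probe that the platform annotation assigns to any of these genes was collected, which gave 79 probes for 39 of the 40 genes. A probe was kept where it was detected above background on at least 3 of the 6 arrays. That left 60 probes and 36 of the 40 genes, among 11370 genes tested on the whole array. Orc2 and Pola1 were not above background on any array, Ccne2 was detected on 1 Dnmt3a-deleted array only, and Prim1 was not analysed here. Of the 36 genes, 32 were detected on all 6 arrays.

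All 6 mice carried the APC(Min/+) mutation, which predisposes to intestinal tumours, on a C57/B6 background, were 5 months old, and had the conditional Dnmt3a(2lox/2lox) alleles of a de novo DNA methyltransferase. Dnmt3a-deleted mice also carried a Fabpl(4x at -132)-Cre(-/+) transgene, with Cre driven by a modified promoter of a fatty acid binding protein gene, which according to the study's design removes Dnmt3a in 30 to 50% of mucosa cells. Control mice were Cre(-/-) and had the same floxed alleles. Each array measured the mucosa of 1 animal, so a change limited to deleted cells is diluted by the other cells, and fewer cells of a type cannot be told apart from less RNA per cell.

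Replication begins when the origin recognition complex, Cdc6 and Cdt1 load the Mcm2 to Mcm7 helicase on DNA. Cdc45 and the GINS complex then turn that ring into an active helicase, polymerase alpha and primase lay down primers, polymerases delta and epsilon copy the strands on the clamp that Pcna forms and the RFC complex loads, and RPA covers single strands. In colon mucosa these genes are expressed mainly in dividing cells of the lower crypt, and many of them are known targets of the E2F transcription factors, which act at the start of S phase.

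Depth on an array is set by its signal over background. Mean signal was 285.3 to 368 on the Dnmt3a-deleted arrays and 360.2 to 378.9 on the control arrays, with 19339 to 21296 and 20783 to 21358 probes above background. Dnmt3a-deleted replicate 3 had the lowest of both values and stood apart, with correlations of 0.925 to 0.95 with the other arrays, which correlated at 0.978 to 0.99 among themselves. The 3 Dnmt3a probes were not above background on any array, so the deletion itself could not be checked, and it is not known here whether they lie in the deleted part. Epithelial identity was clear, with 10 of 10 epithelial markers detected. By their levels of Xist and Eif2s3y, Dnmt3a-deleted replicates 1 and 2 and control replicate 1 were male and the other 3 mice female.

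Replication genes stood somewhat higher in Dnmt3a-deleted mucosa, but 0 of 36 passed the test over all genes, limma's moderated test at a Benjamini-Hochberg adjusted p under 0.05, in either direction. By that rule 1 of 11370 genes passed as higher, 0.0088%, and 0 as lower. At an unadjusted p under 0.05, limma gave 7 of 36 replication genes as higher and 0 as lower, against 3.07% of all genes higher and 2.15% lower. The values of all 3 Dnmt3a-deleted mice lay above all 3 control values for 9 of 36 genes, against 9.22% of all genes, and the reverse held for 0 of 36, against 5.3%. The 9 genes were Cdc45, Pold1, Rfc5, Mcm2, Rrm1, Fen1, Rrm2, Lig1 and Rpa1. Over the 36 genes 27 had a mean above that of the controls (58.3% of all genes did), and the median log2 difference, Dnmt3a-deleted minus control, was 0.22, beside 0.05 over all genes tested.

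**Figure D1:**
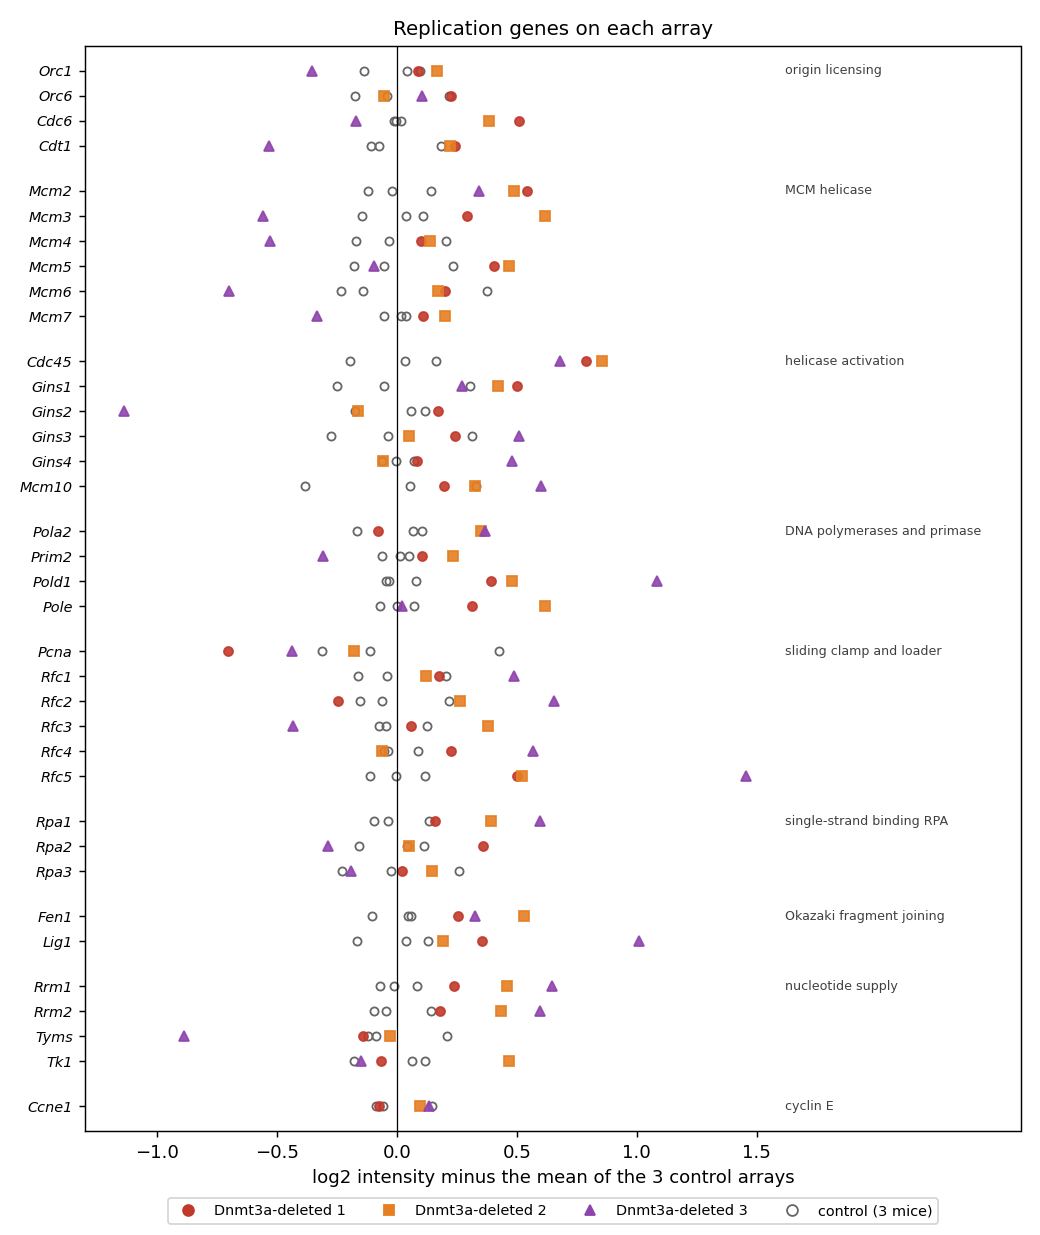
Log2 intensity of the 36 measured replication genes on each array, as the difference from the mean of the 3 control arrays, grouped by role. Filled symbols are the 3 Dnmt3a-deleted mice and open circles the 3 control mice; Dnmt3a-deleted replicate 3 lies at both extremes, from -1.14 for Gins2 to 1.45 for Rfc5.

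The 3 Dnmt3a-deleted mice did not show this in the same way. Replicates 1 and 2 each stood above the control mean in 30 of 36 genes, against 56.3% and 53.2% of all genes. Their median differences from the control mean were 0.20 and 0.25, and each was above all 3 controls in 22 of 36. Replicate 3 stood above the control mean in 20 of 36 genes, against 57.9% of all genes, and above all controls in 16. The share of all genes above all 3 controls was not computed for single arrays. The median of replicate 3 was 0.12, close to the 0.11 that all genes had on that array. It was the highest of all 6 arrays for 13 replication genes and the lowest for 12, where it was highest for 40.1% and lowest for 27.4% of all genes. Compared with both other Dnmt3a-deleted mice it was higher in 14 of 36 genes and lower in 19, by the brightest probe of each gene. Of all genes, 48.4% were higher there than in both and 36% lower. That position depended on the probe: of the 15 genes with more than 1 kept probe, 10 had kept probes on both sides of the other 2 mice, and 7 (Gins2, Lig1, Mcm6, Prim2, Rfc2, Rpa2 and Rrm2) were highest of all 6 arrays there by one kept probe and lowest by another. The controls were not alike either. Control replicate 2 was the lowest array for 13 of 36 genes (15.3% of all genes) and above the control mean in 9 (53.2% of all genes). Without it 2 of 36 genes were higher at an unadjusted p under 0.05 by limma, against 2.01% of all genes, and the median relative to all genes was 0.079, beside 0.16 with it. The median SD over replication genes was 0.284 in Dnmt3a-deleted and 0.144 in control mucosa (3 mice each), and 0.108 between Dnmt3a-deleted replicates 1 and 2; over all genes the values were 0.266, 0.176 and 0.123.

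Without Dnmt3a-deleted replicate 3 the mean was above control for 34 of 36 replication genes, against 55.2% of all genes, and only Pcna and Tyms were below it. In 17 of 36 genes both remaining Dnmt3a-deleted mice lay above all controls, against 13.4% of all genes. By limma 11 of 36 were higher at an unadjusted p under 0.05, against 2.74%, and 0 lower, against 2.12%. After adjustment 0 passed, where the smallest adjusted p was 0.925. The median difference was 0.20, beside 0.02 over all genes. With sex as a term in limma 22 of 36 genes were above 0 (58.1% of all genes), 8 were higher at an unadjusted p under 0.05 (8.16%) and 0 lower (6.47%). With array weights, which gave replicate 3 little weight, 30 of 36 were above 0 (56%), 11 were higher at that p (11.5%) and Pcna alone lower (8.02%), and Cdc45 passed adjustment, which 0.0616% of all genes did as higher and 0.0704% as lower. Between the 2 Dnmt3a-deleted males and the 1 control male, 30 of 36 genes were higher with a median of 0.26 (54% and 0.02 over all genes). Between the 1 Dnmt3a-deleted female and the 2 control females, 20 of 36 were higher with a median of 0.11 (57.8% and 0.11 over all genes). Within the Dnmt3a-deleted group, sex and the array that stood apart cannot be told apart.

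**Figure D2:**
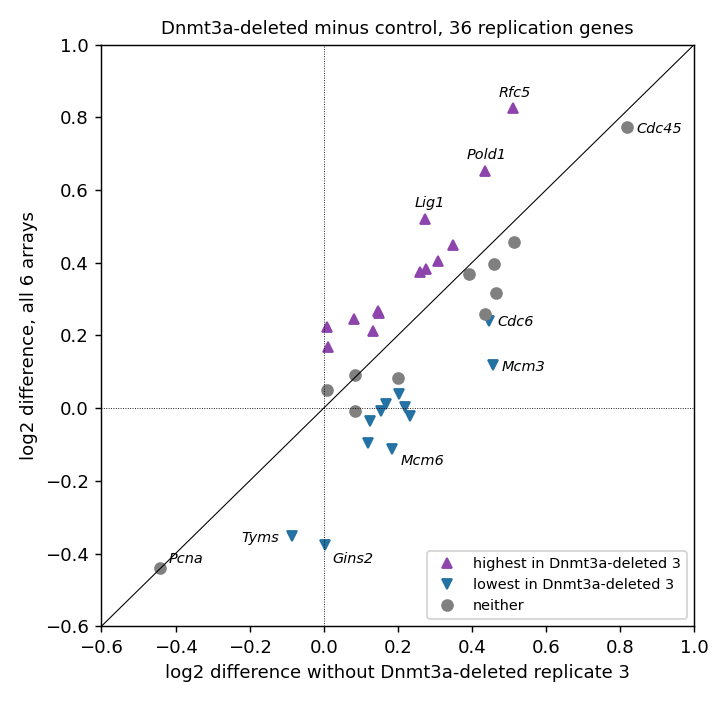
Log2 difference of the 36 replication genes, Dnmt3a-deleted minus control, without Dnmt3a-deleted replicate 3 (x axis) and over all 6 arrays (y axis); the line marks equal values, and triangles mark genes highest (up) or lowest (down) of all arrays in that replicate. Points above the line, such as Rfc5 (0.83 over all arrays), owe part of their size to replicate 3, while Mcm6 and Gins2 lie below 0 only when it is included.

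Promoter windows of replication genes are shown because many are E2F targets and because the members differ in how replicate 3 reads them. RefSeq promoter windows (assembly GRCm38.p6, 250 bases before to 50 bases after the start) were matched by symbol for 32 of the 40 genes, in 37 windows. They were searched on both strands for the E2F letters TTTCCCGC and TTTGGCGC, which read GCGGGAAA and GCGCCAAA on the other strand, and 0 matches overlapped each other. At least 1 match was found in 10 of the 37 member windows, 27%, against 1.56% of all 32851 windows. The genes were Cdc6, Cdt1, Mcm3, Mcm5, Mcm6, Mcm7, Gins3, Pola1, Pold1 and Rfc3. The windows of Cdc45 and Pold1, the genes of smallest p, and of Mcm3 and Mcm6, the windows with 2 matches, are given 5′ to 3′ on the gene's strand, which is the minus strand for all 4, with matches in capitals.
Cdc45, chr16:18811923-18812222: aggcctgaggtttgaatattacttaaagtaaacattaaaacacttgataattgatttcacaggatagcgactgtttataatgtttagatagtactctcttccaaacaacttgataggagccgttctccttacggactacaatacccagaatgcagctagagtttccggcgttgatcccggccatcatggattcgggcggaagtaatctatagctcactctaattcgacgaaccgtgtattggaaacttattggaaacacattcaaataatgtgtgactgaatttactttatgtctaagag
Pold1, chr7:44548766-44549065: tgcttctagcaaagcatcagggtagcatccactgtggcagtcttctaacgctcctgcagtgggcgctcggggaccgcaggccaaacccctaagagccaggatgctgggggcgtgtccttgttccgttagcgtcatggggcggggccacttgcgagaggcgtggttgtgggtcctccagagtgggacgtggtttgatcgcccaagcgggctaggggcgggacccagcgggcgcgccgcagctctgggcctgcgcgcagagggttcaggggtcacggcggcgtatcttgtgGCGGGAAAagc
Mcm3, chr1:20820263-20820562: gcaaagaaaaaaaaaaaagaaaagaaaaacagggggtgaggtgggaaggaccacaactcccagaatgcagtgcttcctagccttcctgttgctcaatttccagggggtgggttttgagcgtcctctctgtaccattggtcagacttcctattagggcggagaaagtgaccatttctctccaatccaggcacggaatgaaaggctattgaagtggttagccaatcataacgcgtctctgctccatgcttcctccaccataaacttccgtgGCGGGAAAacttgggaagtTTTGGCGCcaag
Mcm6, chr1:128359656-128359955: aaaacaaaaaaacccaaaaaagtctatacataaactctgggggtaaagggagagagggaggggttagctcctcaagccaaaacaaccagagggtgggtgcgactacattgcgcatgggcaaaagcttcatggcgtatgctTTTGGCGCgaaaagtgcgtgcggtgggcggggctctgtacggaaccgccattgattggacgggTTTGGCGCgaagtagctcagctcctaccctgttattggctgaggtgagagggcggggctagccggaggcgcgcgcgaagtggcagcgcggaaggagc
Pold1 holds its match just after the start, Mcm3 holds both there, Mcm6 holds both before the start, and Cdc45 holds these letters nowhere in this window. A match is a description of the sequence only.

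Origin licensing genes showed no common difference over all 6 arrays. Of the 4 measured, 2 were above and 2 below the control mean, differences ran from -0.03 to 0.24, and 0 of 4 had groups apart. Cdc6, which brings the helicase to origins, read 7.13, 7.01 and 6.45 in Dnmt3a-deleted replicates 1 to 3, against 6.64, 6.61 and 6.62 in the controls (log2 difference 0.24 ± 0.21 SE, adjusted p 0.720 by limma). The first 2 mice were above all controls and replicate 3 below them. Cdt1, its partner in loading, had the same pattern, with 8.88, 8.86 and 8.11 against 8.53, 8.82 and 8.56. Orc1, the largest subunit of the origin complex, read 5.71, 5.79 and 5.27 against 5.67, 5.49 and 5.72, and was detected on 2 of 3 Dnmt3a-deleted arrays. Orc6, another subunit, overlapped fully (8.83, 8.55 and 8.71 against 8.43, 8.56 and 8.82). Cdc6 apart, these genes had differences smaller than 0.10 with standard errors of 0.17 or more.

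The 6 subunits of the Mcm helicase form one ring, and the array readings did not give them one difference. Mcm2 was the 1 of 6 with groups apart, at 8.73, 8.67 and 8.52 in Dnmt3a-deleted mice against 8.32, 8.16 and 8.06 in controls. Its log2 difference was 0.46 ± 0.16 (SE), which is 1.37-fold; limma's adjusted p was 0.700. Mcm5 read 10.14, 10.21 and 9.64 against 9.68, 9.56 and 9.97, and Mcm3 read 7.14, 7.46 and 6.28 against 6.95, 6.70 and 6.88. In both, Dnmt3a-deleted replicates 1 and 2 exceeded every control while replicate 3 did not. Mcm4 (10.19, 10.23 and 9.57 against 9.92, 10.06 and 10.30) and Mcm6 (9.72, 9.69 and 8.82 against 9.38, 9.29 and 9.90) overlapped, with control replicate 3 the highest array of each. Mcm7 read 7.85, 7.94 and 7.41 against 7.78, 7.76 and 7.69. By the brightest probes replicate 3 was the lowest Dnmt3a-deleted mouse in 6 of 6 subunits, but another kept Mcm6 probe was highest of all 6 arrays there (9.45) and another Mcm4 probe lay between the other 2 mice. By the brightest probes, replicates 1 and 2 were both above the control mean in 6 of 6 subunits. Over all arrays 3 of 6 differences were above 0 with a median of 0.06. Without replicate 3 the count was 6 of 6, from 0.12 for Mcm4 to 0.52 for Mcm2, with a median of 0.31.

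Among the genes that activate the helicase, Cdc45 gave the smallest p of all replication genes. It read 7.27, 7.34 and 7.16 in Dnmt3a-deleted mice, against 6.52, 6.28 and 6.65 in controls. All 3 Dnmt3a-deleted values lay above every control value, replicate 3 included. The log2 difference was 0.77 ± 0.16 (SE), 1.71-fold, and limma's adjusted p was 0.700. Cdc45 was at an unadjusted p under 0.05 by limma in 22 of 22 alternatives, with differences from 0.47 to 0.89. These alternatives share arrays and probe values, so they are not independent. Within sexes the difference was 0.79 between males and 0.69 between females. Both had to be above 0, because the groups were apart. Cdc45 was also picked for its p on these same arrays. Its second probe was not above background on any array.

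The GINS complex, which binds Cdc45 and the Mcm ring, did not follow Cdc45 as a whole. Gins1 read 7.28, 7.2 and 7.05 against 7.08, 6.53 and 6.72, where control replicate 1 overlapped with replicate 3 (0.40 ± 0.19 SE, adjusted p 0.700). Gins2 read 7.62, 7.28 and 6.31 against 7.27, 7.56 and 7.50, the lowest reading coming from replicate 3. Gins3 (5.65, 5.46 and 5.92 against 5.72, 5.13 and 5.37) and Gins4 (9.57, 9.42 and 9.96 against 9.55, 9.42 and 9.48) were highest in replicate 3, the opposite of Gins2. The probes of Gins2 itself differed on that array, since another kept probe was highest of all 6 there, at 7.09, and the remaining one lowest, at 5.96. Mcm10, which helps to activate the helicase, read 8.71, 8.84 and 9.11 against 8.57, 8.13 and 8.85. Of the 6 genes of this role 5 were above the control mean, with a median of 0.32.

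All 4 measured polymerase and primase genes were above the control mean, with differences from 0.01 to 0.65. Pold1, the catalytic subunit of polymerase delta, had its groups apart, with 8.71, 8.80 and 9.41 in Dnmt3a-deleted mice against 8.40, 8.28 and 8.29 in controls. The difference was 0.65 ± 0.21 (SE), 1.57-fold, adjusted p 0.700 by limma, and 0.44 without replicate 3, which was far above the rest. Pole, the catalytic subunit of polymerase epsilon, read 6.37, 6.67 and 6.07 against 6.05, 5.98 and 6.13. Here the first 2 Dnmt3a-deleted mice were above every control and replicate 3 was among them. Pola2, a subunit of polymerase alpha, read 7.05, 7.48 and 7.50 against 7.20, 7.24 and 6.97, and Prim2, the large primase subunit, 6.62, 6.76 and 6.21 against 6.46, 6.53 and 6.57. Both overlapped between the groups.

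**Figure D3:**
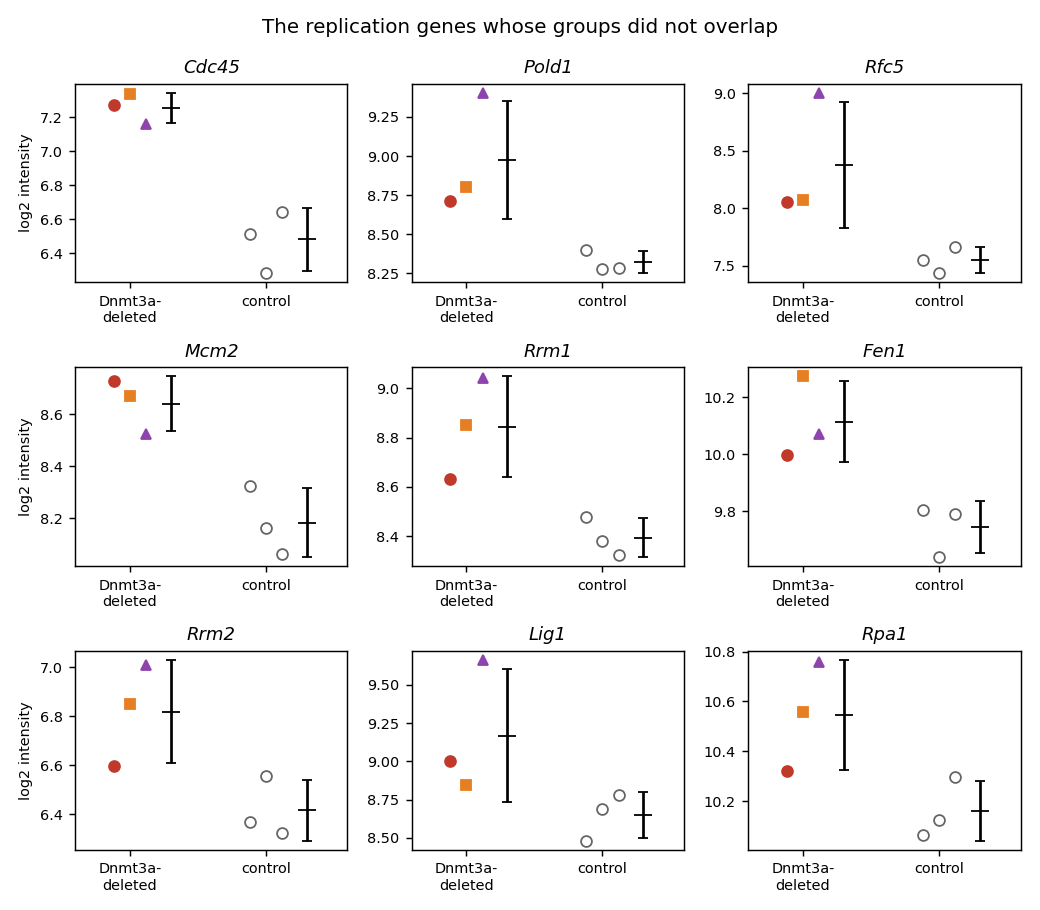
Log2 intensity of the 9 replication genes whose groups did not overlap, each on its own scale. Filled symbols are Dnmt3a-deleted replicates 1 (circle), 2 (square) and 3 (triangle), open circles are controls, and black bars show the mean and SD of 3 mice; these are the brightest probes, and replicate 3 is the highest point for Pold1, Rfc5, Rrm1, Rrm2, Lig1 and Rpa1 and the lowest Dnmt3a-deleted point for Cdc45 and Mcm2.

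The clamp and its loader gave the largest and the most negative of all 36 differences in these data. Rfc5, a small loader subunit, read 8.05, 8.07 and 9.0 against 7.55, 7.44 and 7.67, a difference of 0.83 ± 0.27 (SE), 1.77-fold (adjusted p 0.700 by limma). The groups did not overlap by this brightest probe, but replicate 3 carried much of the size, which was 0.51 without it. Pcna, the clamp, read 4.93, 5.46 and 5.20 against 5.53, 5.33 and 6.06, for a difference of -0.44 ± 0.24 (SE, adjusted p 0.700). It was detected on 1 of 3 Dnmt3a-deleted arrays and on 3 of 3 control arrays, so its readings lie near background and its groups overlap. Rfc1, the large loader subunit, read 8.53, 8.47 and 8.84 against 8.31, 8.55 and 8.19. Rfc2 (10.04, 10.55 and 10.94 against 10.51, 10.13 and 10.23) and Rfc4 (7.66, 7.37 and 8.0 against 7.52, 7.40 and 7.38) were, like Rfc1 and Rfc5, highest in replicate 3 by their brightest probes. Rfc3 went the other way there, at 5.43, 5.75 and 4.94 against 5.30, 5.33 and 5.50, with detection on 2 of 3 Dnmt3a-deleted arrays. Another kept Rfc2 probe was lowest of all arrays there, at 6.77, and the remaining Rfc2 probes were highest in control replicate 1, so no position of the loader on that array can be given.

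RPA, the single-strand binding complex, had 1 of 3 measured subunits with groups apart. Rpa1, the large subunit, read 10.32, 10.56 and 10.76 against 10.07, 10.13 and 10.30, with the groups apart by a narrow gap (0.38 ± 0.17 SE, adjusted p 0.700 by limma). Rpa2 read 7.38, 7.07 and 6.73 against 6.86, 7.06 and 7.13, and Rpa3 read 9.29, 9.41 and 9.07 against 9.24, 9.03 and 9.52. Both overlapped and had differences of 0.04 and -0.01. The low reading of Rpa2 in replicate 3 came from its brightest probe, and the other kept probe was highest of all arrays there, at 6.31.

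Both genes of Okazaki fragment joining had their groups apart by their brightest probes. Fen1, the flap nuclease that trims the ends, read 9.999, 10.27 and 10.07 against 9.80, 9.64 and 9.79, a difference of 0.37 ± 0.16 (SE), 1.29-fold, adjusted p 0.700 by limma. Lig1, the ligase that seals them, read 9.0, 8.84 and 9.66 against 8.48, 8.69 and 8.78, a difference of 0.52 ± 0.24 (SE, adjusted p 0.700), and 0.27 without replicate 3. Fen1 was even across the 3 Dnmt3a-deleted mice, while Lig1 was not.

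Of the genes of nucleotide supply, by their brightest probes, both subunits of ribonucleotide reductase had groups apart and the thymidine genes did not. Rrm1, the large subunit, read 8.63, 8.85 and 9.04 against 8.48, 8.38 and 8.32, a difference of 0.45 ± 0.17 (SE), 1.36-fold, adjusted p 0.700 by limma. Rrm2, the small subunit made in S phase, read 6.60, 6.85 and 7.01 against 6.37, 6.56 and 6.32, a difference of 0.40 ± 0.17. In Rrm2 the gap between the lowest Dnmt3a-deleted mouse and the highest control was small, and its other kept probes overlapped, at -0.15 and -0.12. Tyms, thymidylate synthase, read 9.80, 9.92 and 9.06 against 9.86, 9.82 and 10.15, a difference of -0.35 ± 0.25 that was -0.08 without replicate 3. The dimmer kept probe of Tk1, thymidine kinase, had groups apart, at 6.44, 6.76 and 6.61 against 6.25, 6.08 and 6.09. Its brightest probe overlapped, at 9.24, 9.77 and 9.15 against 9.42, 9.12 and 9.37. Ccne1, the cyclin that drives entry into S phase with Cdk2, also overlapped, at 6.01, 6.18 and 6.22 against 6.23, 6.00 and 6.02 (0.05 ± 0.16 SE, adjusted p 0.916).

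Probes of one gene did not always read alike. Of the 36 genes 15 had more than 1 kept probe, and the brightest stood for the gene. Over all 60 kept probes, each tested with limma among the 21183 kept probes, 41 were above 0, or 68.3% against 53.8% of all kept probes, and 9 were higher at an unadjusted p under 0.05, against 2.54%. The second probe of Rrm1 read 0.56 beside 0.45 for the first, and that of Mcm10 read 0.32 beside 0.37. Tk1 had a second probe at 0.47, at an unadjusted p under 0.05, against 0.08 for the first. By contrast the dimmer probes of Rfc5 and Rrm2 did not follow the brightest, at -0.03 for Rfc5 and at -0.15 and -0.12 for Rrm2. Lig1 read 0.52, 0.29, 0.17 and -0.07 with its 4 probes. Mcm4, Mcm6, Gins2, Rfc2 and Tyms likewise had kept probes on both sides of 0, the widest being Rfc2 with 0.22 and -0.69.

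**Figure D4:**
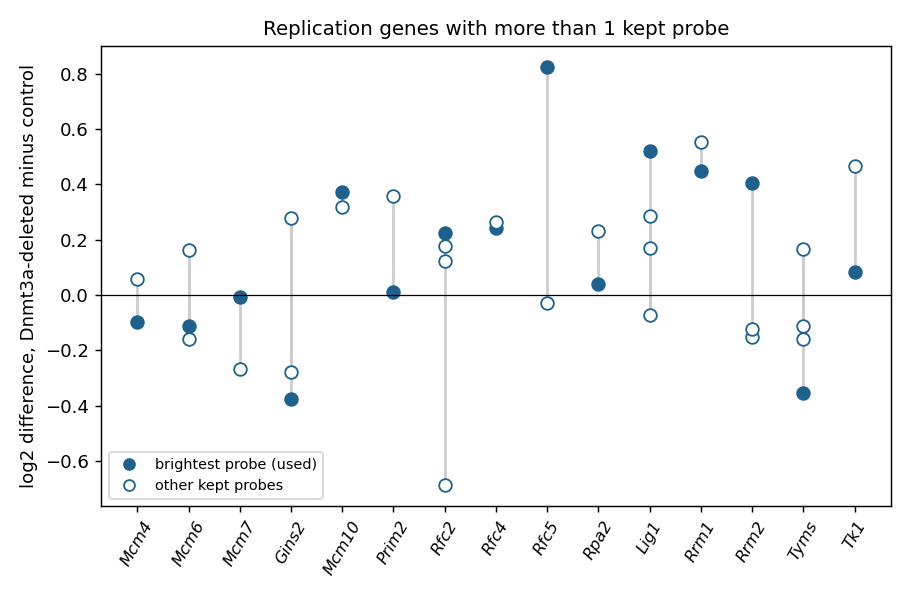
Log2 difference, Dnmt3a-deleted minus control, of every kept probe of the 15 replication genes with more than 1. Filled circles are the brightest probe, which stood for the gene, and open circles the others; Rfc5 and Rrm2 have other probes near or below 0, while both Rrm1 probes are near 0.5.

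Other replication genes, from a separate list, gave a similar median. Of 47 listed genes 38 were measured, 28 of them above the control mean (58.3% of all genes). Their median was 0.19, and 0 were past the adjusted threshold. By limma 4 of 38 were higher and 1 lower at an unadjusted p under 0.05, against 3.07% and 2.15% of all genes. Groups were apart for 8 as higher and 2 as lower, against 9.22% and 5.3%. Chaf1a and Chaf1b, subunits of the factor that puts histones on new DNA, read 7.78, 8.24 and 8.33 against 7.38, 7.47 and 7.55, and 8.0, 7.98 and 8.59 against 7.68, 7.56 and 7.52. Both sets were apart, at 0.65 and 0.60. Chtf18, of an alternative clamp loader, was at 0.75, and Pold4, the small polymerase delta subunit, was at -0.46, with its Dnmt3a-deleted values below every control while those of Pold1 were above.

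In the control of entry into S phase, 20 of 26 listed genes were measured and 12 were above the control mean, with a median of 0.07. That is near all genes tested, of which 58.3% were above it, with a median of 0.05. E2f1 and E2f2, activators of replication genes, read 7.88, 7.74 and 8.28 against 7.34, 7.30 and 7.58, and 9.10, 9.36 and 9.63 against 8.91, 8.50 and 8.82. E2f4, mostly a repressor, read 8.51, 8.61 and 8.70 against 8.25, 8.28 and 8.22. The groups of all 3 were apart, with differences of 0.56, 0.62 and 0.36 and an adjusted p of 0.700 by limma. E2f3, E2f5 and E2f6 overlapped between the groups, at -0.17, -0.23 and 0.20. Of the 20 genes, 4 had groups apart as higher and 1, Cdkn2b, as lower, against 9.22% and 5.3% of all genes. Cdkn1c, an inhibitor of cyclin-dependent kinases, had the widest difference of this list, 1.31 ± 0.38 (SE), with 7.95, 8.19 and 9.17 against 7.71, 7.07 and 6.60. Mitosis genes, of which 17 of 24 were measured, were above the control mean in 16 (58.3% of all genes), with a median of 0.50. Groups were apart as higher for 5 (9.22% of all genes), among them Cdca8, Cdc20, Plk1 and Bub1b at 0.80, 0.81, 0.68 and 0.64. The median of the mitosis genes was 0.25 without replicate 3. That replicate was the highest array for 14 of the 17, while control replicate 2 was the lowest for 15.

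**Figure D5:**
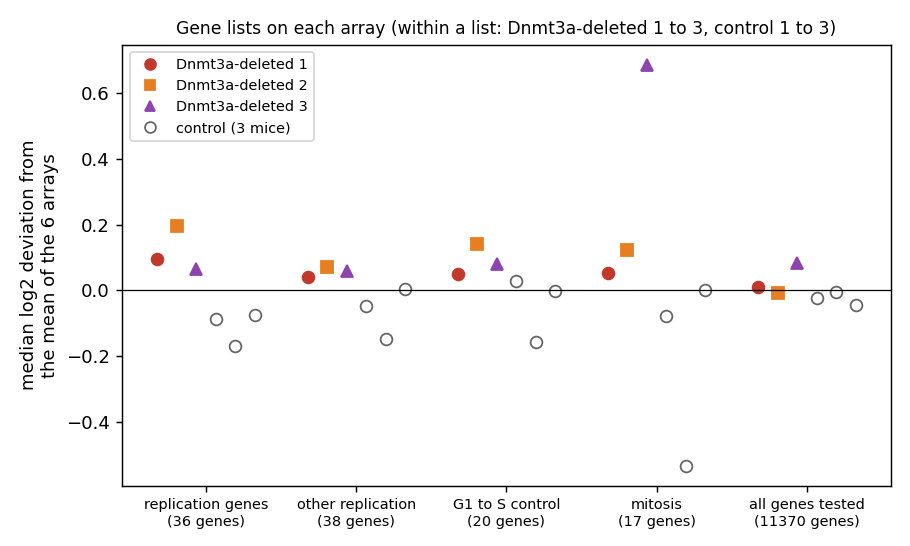
Median deviation of each gene list from the mean of the 6 arrays, in log2 units, for each mouse. Replication genes lie between 0.06 and 0.19 on the Dnmt3a-deleted arrays and between -0.17 and -0.08 on the control arrays, whereas mitosis genes span from -0.53 in control replicate 2 to 0.69 in Dnmt3a-deleted replicate 3.

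Markers of other cells also differed with the groups. Of 13 T and NK cell markers 8 were measured, 6 of them lower at an unadjusted p under 0.05 by limma, against 2.15% of all genes. All 8 of 8 were below the control mean (58.3% of all genes were above it), with a median of -1.16. Their summed normalized intensity was 795.3 to 1859 in Dnmt3a-deleted and 2388 to 5297 in control mucosa, and Cd4, Cd8a and Gzmb were not detected on enough arrays to be measured. Goblet cell markers, 8 of 8 measured, summed to 67670 to 83880 and 55500 to 65140. That gap depended on Clca1, which read 13.74, 13.05 and 13.70 against 12.67, 11.86 and 10.90 in log2. Groups were apart as higher for 2 of the 8, against 9.22% of all genes. Sums of epithelial markers overlapped, at 61680 to 73810 and 64160 to 70510, as did those of crypt base markers (7 of 10 measured, 2900 to 4999 and 2625 to 3225) and of colonocyte markers (8 of 8, 41130 to 71820 and 63110 to 76340). Replicate 3 had the lowest colonocyte sum and the highest goblet sum. Its crypt base sum was also the highest, but Sox9 made up 4359 of the 4999, and the other 6 crypt base markers summed to 640.6 there, the lowest of all arrays. B and plasma cell markers (6 of 10 measured) summed to 3869 to 5169 and 4212 to 4737. Most of that was Xbp1 (11.77 to 12.24 and 11.92 to 12.08 in log2), while Cd79b, Ms4a1, Jchain and Mzb1 read 5.04 to 6.44. Macrophage and granulocyte markers (6 of 10) summed to 272.2 to 713.1 and 630.1 to 5915. The highest sum was mostly S100a8 and S100a9 in control replicate 2. By limma 3 of these 6 were lower at an unadjusted p under 0.05 (2.15% of all genes). Groups were apart as lower for 2, Fcer1g and Tyrobp (5.3%), but Tyrobp was detected on control arrays only. Markers of muscle, stroma and vessels (4 of 11) summed to 168.4 to 339.9 and 151.8 to 206.4. The part of these cells in the readings of replication genes was not tested.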

How the data were processed

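Total RNA of 6 colon mucosa samples was amplified to biotinylated cRNA and hybridised to 1 Illumina bead array each, per the labels' protocols; the sources used here do not give scanner, software or build. The authors deposited unprocessed signal intensities on a linear scale with a detection p-value per probe, and a second table of processed intensities matched between arrays by an unstated method, linear, uncentred, with column medians of 93.1 to 94.8 for Dnmt3a-deleted and 92.9 to 93.3 for control arrays. From the values, the deposited p-value is 2-sided: 6320 to 7410 probes per array were dimmer than background at p under 0.05. Detection therefore also required a signal above the median of probes with p over 0.97.

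Unprocessed intensities were corrected with normexp (saddle-point estimates, offset 16), quantile normalized and taken to log2 with limma 3.58.1 in R 4.3.3. Of 45135 probes, 21183 were kept, detected on at least 3 arrays. Platform annotation gave 1 symbol for 34773 probes, several for 18 and none for 10344, and 34695 were updated by gene number from RefSeq (GRCm38.p6). A gene was its brightest kept probe; 3555 kept probes had no single name. Groups were compared by lmFit and eBayes, 2-sided, with no covariate. The members, gene lists and tests were chosen with earlier results of these data known. Values on every array were given for members with groups apart and the smallest p in each role, and then, outside that rule and after the values had been seen, for the other members. Up to 4 genes of smallest p were named in each other list, with Pold4, Chtf18 and the mitosis genes given without single values. E2f3, E2f5, E2f6, Cdkn2b and the cell type markers were named outside that rule. In simulated data for this comparison, over 11370 genes, 49 of 100 with a 2-fold change were recovered and 88 of 100 with a 4-fold one, with 3 false calls. Noise was drawn independently for each gene and array, so an array that stands apart over many genes was not represented. The largest difference of a replication gene, 1.77-fold, was smaller than either change. Alternatives changed background correction, value source, normalization, offset, filter, probe rule, moderation, array weights and block, added sex, and left out each array.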

Additional observations from a re-analysis of the deposited data

How the results depend on the processing

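The number of arrays, 3 a group, limits precision, and Pcna, Gins3, Orc1 and Rfc3 were not above background on every array. Over 22 alternatives 16 of 36 replication genes did not turn in sign. The 9 with groups apart were among them, which was largely fixed in advance. Leaving out or reweighting arrays cannot turn the sign of a gene whose groups are apart. After adjustment 0 replication genes passed in any alternative but array weights, where 1 did, Cdc45 (0.79, adjusted p 0.0478 by limma, which ran from 0.0478 to 1 over its alternatives). These weights were 6.04, 0.808 and 0.154 for Dnmt3a-deleted replicates 1 to 3. The median difference was 0.15 without background correction, 0.13 with the authors' processed values and 0.061 with median scaling, which moved the median of all genes to -0.05, so that relative to it the replication genes stood at 0.11, beside 0.16 in the reported fit. Median scaling left 3 genes higher at an unadjusted p under 0.05 (1.51% of all genes) and 4 with groups apart (5.51%), and of all genes at that p 172 were higher and 317 lower, where the reported fit gave 349 and 244 (280 and 282 with cyclic loess). Array weights gave 11 genes as higher at that p (11.5%). With each array left out in turn, genes past adjustment numbered 0 to 0, genes higher at an unadjusted p under 0.05 ran from 2 without control replicate 2 (2.01%) to 11 without Dnmt3a-deleted replicate 3 (2.74%), with 4 without Dnmt3a-deleted replicate 2 (6.52%) and 3 without control replicate 3 (1.5%), genes with groups apart from 10 without control replicate 2 (16.9%) to 17 without Dnmt3a-deleted replicate 3 (13.4%), and the median from 0.14 to 0.24. With Dnmt3a-deleted replicate 3 removed before normalization 17 genes had groups apart (13.3%). Sex as a term with that replicate left out, chosen after seeing the data, gave 2 higher at an unadjusted p under 0.05 (1.64%) and 17 apart (13.4%).

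With the replicate number as a block 4 genes were higher at an unadjusted p under 0.05 (2.38% of all genes). Same-numbered mice did not deviate together (correlations of -0.125, -0.11 and 0.0379). These single correlations show no pairing by number but cannot exclude one.

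Every measured replication gene outside the 16 turned in sign in at least 1 alternative. Prim2 turned in 7 and Mcm7 in 6. Orc1, Cdt1, Mcm4, Mcm6, Rfc3, Rpa2, Rpa3 and Tk1 turned in 5 each. Gins2 and Ccne1 turned in 4, and Mcm3 and Rfc2 in 3. Orc6, Gins3, Gins4, Pola2, Rfc4 and Tyms turned in 1. Values follow for some of them only. Ccne1 was at -0.00304 with the authors' values, -0.10 with median scaling, -0.092 with array weights and -0.14 with sex as a term and without Dnmt3a-deleted replicate 3. For array weights, that replicate left out, its removal before normalization, and sex with it left out, Gins2 was at 0.15, 0.0044, 0.0045 and 0.18, Mcm4 at 0.15, 0.12, 0.12 and 0.29, and Mcm6 at 0.23, 0.18, 0.18 and 0.33. With each array left out in turn, Gins2 ran from -0.65 to 0.0044, Mcm4 from -0.22 to 0.12 and Mcm6 from -0.27 to 0.18; without control replicate 3 Mcm4 was at 0.0054 and Mcm6 at 0.076. Rfc2 was at -0.041 with the mean of its probes, -0.23 with array weights and -0.21 with sex and without Dnmt3a-deleted replicate 3, where Tyms was at 0.0035. The cause of these turns was not tested.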

Other observations

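Replication genes whose promoter window holds an E2F match and those whose window holds none can be set side by side on Dnmt3a-deleted replicate 3, a comparison chosen after the values had been seen and given without a test. Of 9 measured genes with a match, 7 read lower there than the mean of the other 2 Dnmt3a-deleted mice, and 6 were at their lowest of all arrays by their brightest probes: Cdc6, Cdt1, Mcm3, Mcm6, Mcm7 and Rfc3. For Mcm6 another kept probe was highest there, so the count depends on the probe. Over all genes 27.4% were lowest on that array. The share of all genes below the mean of the other 2 Dnmt3a-deleted mice was not computed, while 36% read below both of them. Of 20 measured genes without a match, 8 read lower and 3 were at their lowest by their brightest probes. Here too the count depends on the probe, since other kept probes of Lig1 and Rrm2 were lowest there and another of Rpa2 highest. With all arrays, groups were apart as higher for 1 of the 9 and 8 of the 20, against 9.22% of all genes. Without replicate 3 they were apart for 6 of the 9 and 8 of the 20, against 13.4%. A gene lowest in replicate 3 cannot have groups apart as higher while that array is included. The change from 1 to 6 therefore partly restates the low readings on that array. The 7 measured genes with no window are not included.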
